A study of Mus musculus with 4 samples.

Results

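The genes described here encode 10 secreted or membrane-bound factors that act on blood vessels: the VEGF family ligands Vegfa, Vegfb, Vegfc and Pgf, the vasoactive peptides Adm and Edn1, the lipase inhibitor Angptl4, the ephrin Efna1, and the PDGF chains Pdgfa and Pdgfb. They were chosen by symbol, and all 10 were found by NCBI gene ID among the 27179 genes of the count table. RNA-seq was performed on wild-type MC38 cells, a mouse colon carcinoma line, under 4 conditions with 1 library each: untreated in normoxia, untreated in hypoxia, IFN-γ in normoxia and IFN-γ in hypoxia. The oxygen was 20% in normoxia and 1.5% in hypoxia. The study's usual IFN-γ treatment was 5 ng/mL for 24 hours. No separate dose for the sequenced cells and no length of the hypoxic culture are given in the sources used here.

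Cells that lack oxygen stabilize the HIF transcription factors, which bind DNA at a short core sequence and raise genes for glycolysis, pH control and vessel growth. VEGF-A, the main HIF-regulated angiogenic ligand, acts on the endothelial receptors VEGFR1 (Flt1) and VEGFR2 (Kdr), and PlGF (Pgf) and VEGF-B bind VEGFR1 but not VEGFR2. VEGF-C acts mainly on lymphatic vessels through VEGFR3 (Flt4). Adrenomedullin (Adm) dilates vessels through the receptor Calcrl with a Ramp partner, whereas endothelin-1 (Edn1) constricts them. IFN-γ, a cytokine of T cells and NK cells, is known as a restraint on tumor vessels.

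The libraries summed to between 34302971 and 34537939 counts, a ratio of 1.01, and a floor of 3 counts corresponded to at most 0.0875 CPM (counts scaled to a common library total, with TMM normalization for composition). Both stimuli were evident in reference lists: 12 of 12 HIF-regulated genes such as Ldha rose with hypoxia, with a median log2 change of 1.24, and 10 of 10 IFN-γ-regulated genes such as Irf1 rose with IFN-γ, with a median of 2.26. These lists were chosen with earlier results of these data known, so the choice itself may have set these counts. Of 8 markers of colon epithelium, 4 exceeded the floor in any library, and they summed to between 2.48 and 3.26 CPM. Cdh1 and Cdx2 were at 0 and Epcam and Krt18 at or under 2 counts in every library, whereas Krt8 had 48 to 90 counts, Krt20 had 12 to 22, Vil1 had 7 to 17 and Krt19 had 0 to 18. The 7 endothelial markers summed to between 0.962 and 1.76 CPM, with Emcn and Cldn5 at 0, and the 6 leukocyte markers summed to between 0.204 and 0.664 CPM, with Adgre1 and Itgam at 0. The 7 markers of mural cells and fibroblasts summed to between 36.6 and 44.2 CPM, most of it from the PDGF receptor Pdgfra, and Rgs5 was at 0.

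Promoters of 3 genes are shown, which set Vegfa and Adm, with a hypoxia change, beside Vegfb, without one. Pgf and Pdgfa, which also rose with hypoxia, and the other factors are not shown. The 3 promoters are the RefSeq windows of the 250 bases before the most upstream listed start, on GRCm38.p6. That assembly shares its coordinates with the mm10 build named by the submitters. The Vegfa window lies at chr17:46032378-46032627 on the minus strand, that of Adm at chr7:110627407-110627656 on the plus strand and that of Vegfb at chr19:6987652-6987901 on the minus strand. Each is written 5′ to 3′ in the direction of the gene, and capitals mark the HIF core ACGTG or GCGTG on either strand (CACGT or CACGC where it lies on the other strand).
Vegfa: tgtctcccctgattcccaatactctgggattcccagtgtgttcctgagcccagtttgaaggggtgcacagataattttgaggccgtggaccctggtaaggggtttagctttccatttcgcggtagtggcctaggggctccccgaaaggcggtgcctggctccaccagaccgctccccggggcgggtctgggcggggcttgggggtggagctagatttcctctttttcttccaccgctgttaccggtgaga
Adm: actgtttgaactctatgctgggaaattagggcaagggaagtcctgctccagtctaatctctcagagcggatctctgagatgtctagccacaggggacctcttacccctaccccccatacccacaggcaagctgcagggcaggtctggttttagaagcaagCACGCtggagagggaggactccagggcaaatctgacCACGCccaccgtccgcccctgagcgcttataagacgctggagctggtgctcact
Vegfb: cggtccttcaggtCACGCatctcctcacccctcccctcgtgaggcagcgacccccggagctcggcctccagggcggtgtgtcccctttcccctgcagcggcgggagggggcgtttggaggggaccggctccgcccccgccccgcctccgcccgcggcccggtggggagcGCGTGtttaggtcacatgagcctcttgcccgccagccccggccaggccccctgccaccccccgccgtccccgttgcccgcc
The Adm window held the core 2 times, starting 90 and 54 bases before the start site. The Vegfb window also held it 2 times, and the Vegfa window held none. A RefSeq window was matched for 8 of the 10 genes, and 4 of these (Vegfb, Pgf, Adm and Pdgfa) held the core, against 38.6% of all 32851 windows of that length. Not all of these windows lie outside transcribed sequence: by GENCODE M21, that of Pgf lies over Pgf exons along all 250 bases, that of Pdgfa overlaps its own exon by 93 bases and the antisense gene 6330403L08Rik by 139, and that of Efna1 overlaps its own exon by 191. The motif of interferon regulatory factors was in the Vegfa and Edn1 windows and in 2.98% of all windows. Both strands were searched, and ACGTG also lies within the E-box CACGTG. A match is a description of letters only, and elements farther than 250 bases from the start were not searched.

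Under hypoxic conditions 4 of the 8 tested factors rose and 0 fell (edgeR's quasi-likelihood test, adjusted p under 0.05), and with IFN-γ 0 of 8 passed the test in either direction. Vegfa, Pgf, Adm and Pdgfa were the factors raised by hypoxia, with fitted log2 changes of 0.74, 1.27, 1.5 and 0.24. Among all 13580 genes tested, hypoxia raised 8.21% and lowered 6.83%, and IFN-γ raised 4.76% and lowered 1.10%. The median log2 change of the 8 factors was 0.15 with hypoxia and -0.0063 with IFN-γ, beside medians of 0.0047 and -0.011 over all genes tested. For IFN-γ, 0 of the 8 also reached an unadjusted p under 0.05 in edgeR, and 0 passed in DESeq2 by either p. Edn1 and Pdgfb had too few counts for the default edgeR filter and were not tested. With 1 library per condition, the spread behind these tests is each gene's departure from additive effects of oxygen and IFN-γ (1 residual degree of freedom, pooled across genes), so the p-values are no substitute for replicate cultures.

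**Figure D1:**
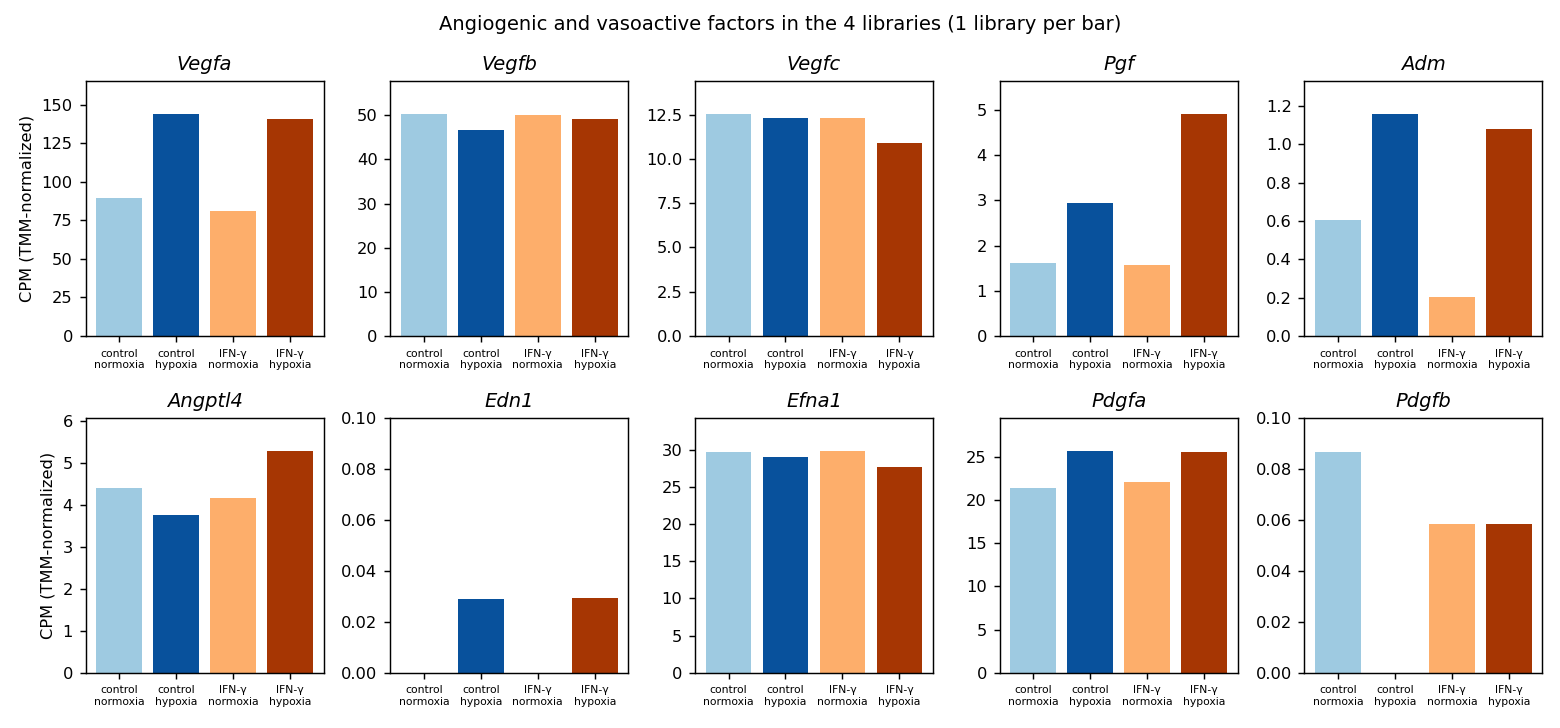
Level of each of the 10 factors in the 4 libraries, in TMM-normalized CPM on a linear axis from 0 that is scaled for each gene. Each bar is 1 library and there is no error bar because no condition had a replicate. Vegfa, Pgf, Adm and Pdgfa were higher in both hypoxic bars than in both normoxic bars, and Vegfb and Efna1 were lower. The share of all genes that order in either way was not computed. Edn1 and Pdgfb never exceeded 3 counts.

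Vegfa was the most heavily counted factor and had the smallest adjusted p of the 8. It had 3104 counts in the untreated normoxic library, 4975 in the untreated hypoxic, 2792 in the IFN-γ normoxic and 4828 in the IFN-γ hypoxic library. Both hypoxic libraries were thus above both normoxic libraries, an order whose share among all genes was not computed. Hypoxia raised Vegfa 1.61-fold without IFN-γ (log2 ratio 0.68, 95% interval 0.62 to 0.75) and 1.73-fold with it (0.79, 0.72 to 0.86). The fitted log2 change was 0.74 (standard error 0.0616, adjusted p = 1.86e-30 from edgeR), and all 6 alternative fits by edgeR or DESeq2 passed the threshold, with adjusted p between 7.32e-16 and 0.0139. The gene lies on chromosome 17 (46016993 to 46032369, minus strand, GENCODE M21 on GRCm38). With IFN-γ the same edgeR fit gave -0.08 with a standard error of 0.0614 (adjusted p = 0.652). The normoxic pair alone was lower with IFN-γ by a log2 ratio of -0.14 (95% interval -0.21 to -0.06), and the hypoxic pair by -0.03 (-0.09 to 0.03).

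These intervals are exact conditional (Clopper-Pearson) intervals of 2 counts. They cover counting error only and compare libraries, not conditions. Even numbers made up between 64.0% and 66.3% of the gene counts from 1 to 10, an excess that would arise if both reads of most pairs had been counted, which was not tested. Intervals were therefore computed a second time with the counts divided by 2, and the text says where that interval no longer excluded 0.

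Pgf, the VEGFR1 ligand, was counted far less often than Vegfa and also rose. The 4 libraries had 56 counts (untreated normoxic), 102 (untreated hypoxic), 54 (IFN-γ normoxic) and 168 (IFN-γ hypoxic). The normoxic libraries were alike, and the hypoxic library with IFN-γ was the highest. The log2 ratio for hypoxia was 0.86 (95% interval 0.38 to 1.36) without IFN-γ and 1.63 (1.19 to 2.11) with it, which is 1.82-fold and 3.09-fold. In edgeR the log2 change was 1.27 with a standard error of 0.234 (adjusted p = 2.15e-06). It passed in 4 of the 5 alternative fits that gave an adjusted p, and without IFN-γ in the edgeR model the adjusted p was 0.133. In hypoxia, the library with IFN-γ was above the untreated library by a log2 ratio of 0.73 (0.37 to 1.10), while in normoxia the ratio was -0.04 (-0.60 to 0.53). The fitted IFN-γ change of 0.43 did not pass the test (standard error 0.231, adjusted p = 0.401 from edgeR). Pgf lies on chromosome 12 (85166635 to 85177790, minus strand).

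Adm, the precursor gene of adrenomedullin, stood near the limit of what this depth can show. Its counts were 21, 40, 7 and 37 in the untreated normoxic, untreated hypoxic, IFN-γ normoxic and IFN-γ hypoxic libraries. Both hypoxic libraries exceeded both normoxic ones, and the lowest value was that of the IFN-γ normoxic library. The hypoxia log2 ratios were 0.92 (95% interval 0.14 to 1.77) and 2.32 (1.22 to 3.81) without and with IFN-γ, and the first no longer excluded 0 with counts divided by 2 (-0.21 to 2.16). The edgeR fit gave a log2 change of 1.5 with a standard error of 0.455 (adjusted p = 0.0103). It passed in 2 of the 4 alternative edgeR fits that could be made and missed in the other 2, with adjusted p of 0.0557 without a filter on low counts and 0.256 without IFN-γ in the model. In normoxia the ratio of IFN-γ to untreated was -1.51 (-3.05 to -0.28), which with counts divided by 2 also included 0 (-3.85 to 0.28). Adm lies on chromosome 7 (110627661 to 110629820, plus strand).

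Pdgfa, which encodes the A chain of platelet-derived growth factor, a mitogen of mesenchymal cells, rose slightly. It had 741 and 757 counts in the normoxic and 889 and 877 in the hypoxic libraries without and with IFN-γ. The log2 ratios were 0.27 (95% interval 0.12 to 0.41) and 0.21 (0.07 to 0.36), which is 1.20-fold and 1.16-fold. The edgeR log2 change of 0.24 with a standard error of 0.087 (adjusted p = 0.0417) was called, but it passed in 0 of the 6 alternative fits, whose adjusted p ran from 0.0525 to 0.480, so its call rests on the main setting alone. Pdgfa lies on chromosome 5 (138976014 to 138997370, minus strand). An exon of it shares up to 354 bases with the antisense gene 6330403L08Rik. Whether the counting used strand is not given in the sources used here, and reads of this antisense gene may then be among the counts.

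Vegfb, Vegfc, Efna1 and Angptl4 did not pass the test for hypoxia. Vegfb had between 1614 and 1740 counts, and its log2 change was -0.07 with a standard error of 0.0732 (edgeR adjusted p = 0.619). Vegfc had between 374 and 434 counts and a change of -0.10 (standard error 0.114). Efna1, a ligand of Eph receptors on endothelial and tumor cells, had between 949 and 1031 counts and a change of -0.07 (standard error 0.0818). In the pairs, the 95% intervals with counts divided by 2 ran from -0.25 to 0.11 for Vegfb, from -0.29 to 0.14 for Efna1 and from -0.46 to 0.26 for Vegfc, so that a rise of the size of Vegfa's lay outside these counting intervals for all 3 genes.

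**Figure D2:**
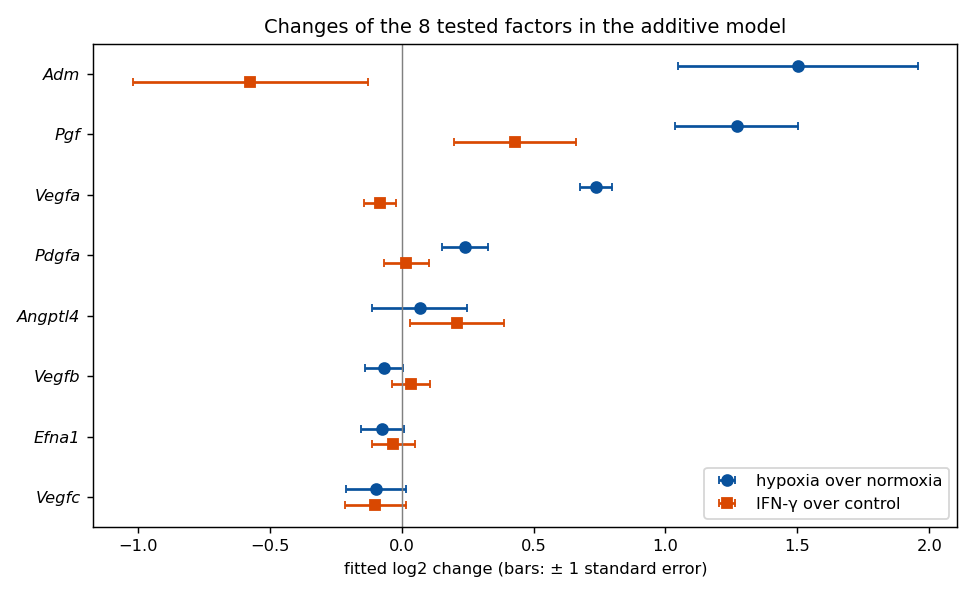
Fitted log2 changes of the 8 tested factors in the additive edgeR model, hypoxia over normoxia (circles) and IFN-γ over control (squares), with bars of ± 1 standard error. Adm, Pgf, Vegfa and Pdgfa lie to the right of 0 for hypoxia, the other 4 lie between -0.10 and 0.07, and the IFN-γ changes lie between -0.57 and 0.43 with 0 passing the test.

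Angptl4, a secreted inhibitor of lipoprotein lipase that is induced by hypoxia in other cell types, had ratios of opposite sign in the pairs, and it did not pass the test. It had 152 counts in the untreated normoxic library, 130 in the untreated hypoxic, 143 in the IFN-γ normoxic and 181 in the IFN-γ hypoxic library. The library with both stimuli was the highest and the library with hypoxia alone the lowest. The hypoxia ratio was -0.22 (95% interval -0.57 to 0.12) without IFN-γ and 0.34 (0.02 to 0.67) with it, and the second included 0 with counts divided by 2 (-0.12 to 0.81). The edgeR estimate for hypoxia was 0.07 on the log2 scale, with a standard error of 0.178 (adjusted p = 0.858). In hypoxia the log2 ratio of IFN-γ to untreated was 0.49 (0.16 to 0.83, and 0.01 to 0.97 with counts divided by 2), whereas the fitted IFN-γ change of 0.21 did not pass (adjusted p = 0.732 from edgeR).

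Edn1 and Pdgfb were not detectable above the floor. Edn1 had 0 counts in both normoxic and 1 count in both hypoxic libraries. Pdgfb had 3 counts in the untreated normoxic, 0 in the untreated hypoxic and 2 in each IFN-γ library. Every value lay at or under 3 counts, so no change of endothelin-1 or PDGF-B mRNA could be seen at this depth.

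The hypoxia ratios with and without IFN-γ were set side by side, and without replicates their difference could not be tested. The ratio with IFN-γ minus that without it was 0.77 for Pgf (95% counting interval 0.12 to 1.41), 1.41 for Adm (0.05 to 2.77), 0.56 for Angptl4 (0.10 to 1.02) and 0.11 for Vegfa (0.02 to 0.20). With counts divided by 2 all 4 intervals included 0. The other 4 tested factors had differences between -0.15 and 0.08 with intervals that included 0. The same difference was taken for 10443 genes whose lowest count was 100 or more, and the central 95% ran from -0.36 to 0.40. Vegfa lay inside this range, as did the other 4 factors. Angptl4 lay above it, but its lowest count, 130, was close to the cutoff of 100. Its own counting interval (0.10 to 1.02) reached into the range, so its place above it is not read as a trait of the gene. Pgf and Adm had lowest counts under 100, so this range gives no measure for them.

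**Figure D3:**
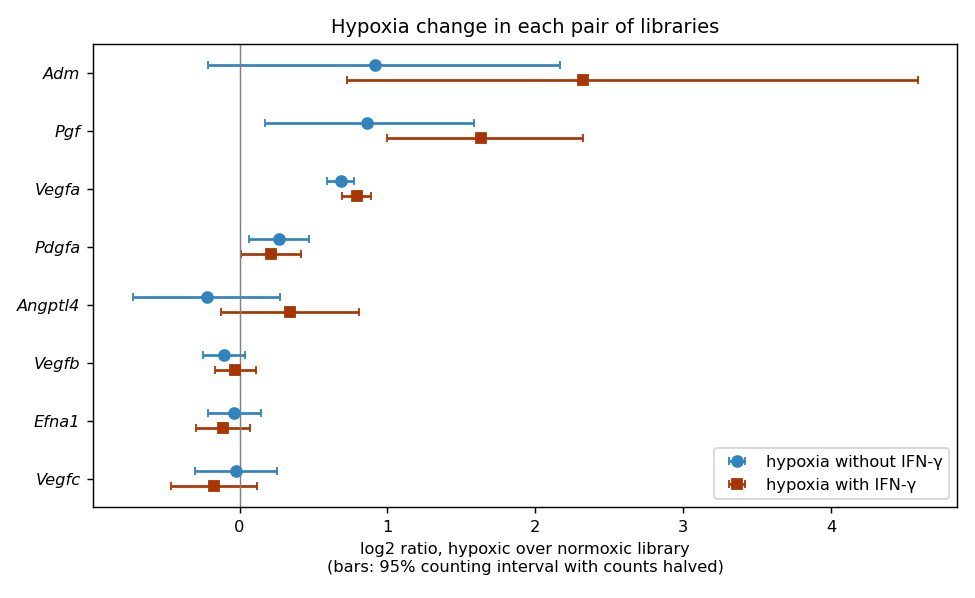
Log2 ratio of the hypoxic over the normoxic library for the 8 tested factors, without IFN-γ (circles) and with IFN-γ (squares). Bars are 95% Clopper-Pearson intervals with counts divided by 2 and cover counting error only. Vegfa and Pdgfa have closely similar ratios in both pairs, Pgf and Adm have wide intervals that overlap between the pairs, and Angptl4 lies on either side of 0.

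Levels of different genes were compared per kilobase of exon (CPM per kb, exon union of GENCODE M21). Averaged over the 4 libraries, Vegfb stood at 30.6, Vegfa at 26.6, Efna1 at 15.9, Pdgfa at 7.60, Vegfc at 4.91, Angptl4 at 1.24, Pgf at 0.951 and Adm at 0.471 CPM per kb. Vegfa ran from 19.0 to 33.6 and Vegfb from 29.1 to 31.3 CPM per kb, so these neighbours overlapped over the libraries. Within normoxia Vegfb was above Vegfa, at 31.3 against 20.9 CPM per kb without IFN-γ and 31.3 against 19.0 with it. In hypoxia the order turned, with Vegfa at 33.6 and 32.9 and Vegfb at 29.1 and 30.6 CPM per kb. The range of Pgf over the libraries (0.543 to 1.69) overlapped those of Angptl4 (1.06 to 1.49) and Adm (0.126 to 0.715). Within each library, however, Pgf was above Adm. The ranges of the other neighbours were apart. The exon union can exceed the transcripts that MC38 cells use, which would lower the value of a gene with many isoforms.

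The genes outside the 10 whose centred log2 CPM over the 4 libraries lay nearest to Vegfa were Pgam1, a glycolytic mutase whose reads may be shared with near-identical copies (not checked), Pvr, a nectin-like adhesion ligand, and Gbe1, the glycogen branching enzyme. Their Euclidean distances were 0.0475, 0.0486 and 0.0552 log2 units, among the 10437 genes outside the 10 factors that reached 100 counts in each library. With 4 libraries this likeness says only that the ratios between the libraries were similar, for hypoxia and for IFN-γ. The hypoxia log2 changes were 0.66, 0.67 and 0.74 without IFN-γ and 0.85, 0.85 and 0.84 with it. In normoxia the counts without and with IFN-γ were 19361 and 16991, 2005 and 1780, and 1400 and 1251.

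Partner genes of these pathways passed the test for hypoxia about as often as all genes tested. Of 70 listed receptors, paralogs, processing enzymes, other growth factors and inhibitors, 44 were tested. Hypoxia raised 5 of them (11.4%) and lowered 2 (4.55%), against the backgrounds of 8.21% and 6.83%, and IFN-γ raised 1 (2.27%) and lowered 0, against 4.76% and 1.10%. At an unadjusted p under 0.05, edgeR had 4 of the 44 raised and 6 lowered with IFN-γ, against 8.13% and 5.84% of all genes tested. DESeq2 had 2 of 44 at that threshold, against 5.35% of all, and called 0 after adjustment. The median log2 change of the 44 was 0.04 with hypoxia and -0.01 with IFN-γ.

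Apln, which encodes the vessel-active peptide apelin, had the largest hypoxia change of the tested partners. It went from 1062 to 2271 counts in the untreated pair and from 940 to 2222 in the IFN-γ pair, with both hypoxic libraries above both normoxic ones. In edgeR its log2 change was 1.17 with a standard error of 0.0755 (adjusted p = 4.49e-51), and all 6 alternative fits passed. Adm2, which encodes the adrenomedullin relative intermedin, rose from 466 to 658 and from 428 to 685 counts, a log2 change of 0.59 (standard error 0.101). Vegfd, which encodes a VEGFR3 ligand, rose from 81 to 119 and from 104 to 172 counts, a log2 change of 0.65 (standard error 0.204). Adamts1, a secreted protease that can bind VEGF-A, rose from 1738 to 2216 and from 1758 to 2476 counts, a log2 change of 0.42 (standard error 0.0704). All 3 were higher in both hypoxic libraries than in their normoxic counterparts. Their adjusted p-values from edgeR were 3.01e-07, 0.0143 and 8.58e-08, and each missed the threshold once among its alternative fits, in the model without IFN-γ, with 0.0564 for Adm2, 0.300 for Vegfd and 0.0816 for Adamts1. DESeq2 gave Vegfd no adjusted p and did not call it (unadjusted p = 0.0771).

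Of the receptors, Nrp1, the VEGF co-receptor neuropilin-1, rose with hypoxia by a log2 change of 0.29 (edgeR adjusted p = 0.00367), from 1100 to 1310 and from 970 to 1212 counts. Epha2, a receptor of Efna1, had a log2 change of -0.21 (edgeR adjusted p = 0.00869) and fell from 4265 to 3593 and from 4086 to 3636 counts. Each missed the threshold in 2 of 6 alternative fits, with adjusted p up to 0.216 and 0.163. The endothelin-converting enzyme gene Ece2 also fell, with a log2 change of -0.30, but 55.7% of its 31-base words also occur in another annotated gene, so its counts are uncertain. Kdr had 0 counts in every library, Flt4 had at most 3 and Flt1 between 7 and 15. Nrp2, the neuropilin that also binds VEGF-C, had between 5196 and 6085 counts. Of the adrenomedullin receptor genes, Calcrl had between 46 and 58 counts, Ramp2 between 95 and 139 and Ramp3 between 767 and 927, and none of these 3 passed the test. Ramp2 is uncertain, since 31.7% of its 31-base words recur elsewhere in the annotation. Ramp1 and Ednrb had 0 counts in every library. Ednra had 0 in both untreated libraries and 4 in both IFN-γ libraries. It had too few counts for the filter and was not tested, and its 95% counting intervals for IFN-γ included 0 in both pairs. Pdgfra had between 1077 and 1341 counts and Lpl, the lipase that Angptl4 inhibits, between 1954 and 2268, and neither passed the test for either stimulus. The PDGF receptor gene Pdgfrb had between 50 and 93 counts and also passed for neither. Its log2 ratio of IFN-γ to untreated was -0.87 in normoxia (-1.41 to -0.37, and -1.64 to -0.15 with counts divided by 2). In hypoxia that ratio was -0.15 (-0.64 to 0.34).

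With IFN-γ, Angpt1, which encodes the Tie2 agonist angiopoietin-1, was the partner that rose. Its counts were 18 in normoxia and 23 in hypoxia without the cytokine, and 52 and 59 with it. In edgeR the log2 change was 1.45 with a standard error of 0.375 (adjusted p = 0.0029), and it missed the threshold in 2 of 6 alternative fits, with adjusted p up to 0.553 in DESeq2. Up to 653 bases of an Angpt1 exon lie opposite the antisense gene Gm17473.

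**Figure D4:**
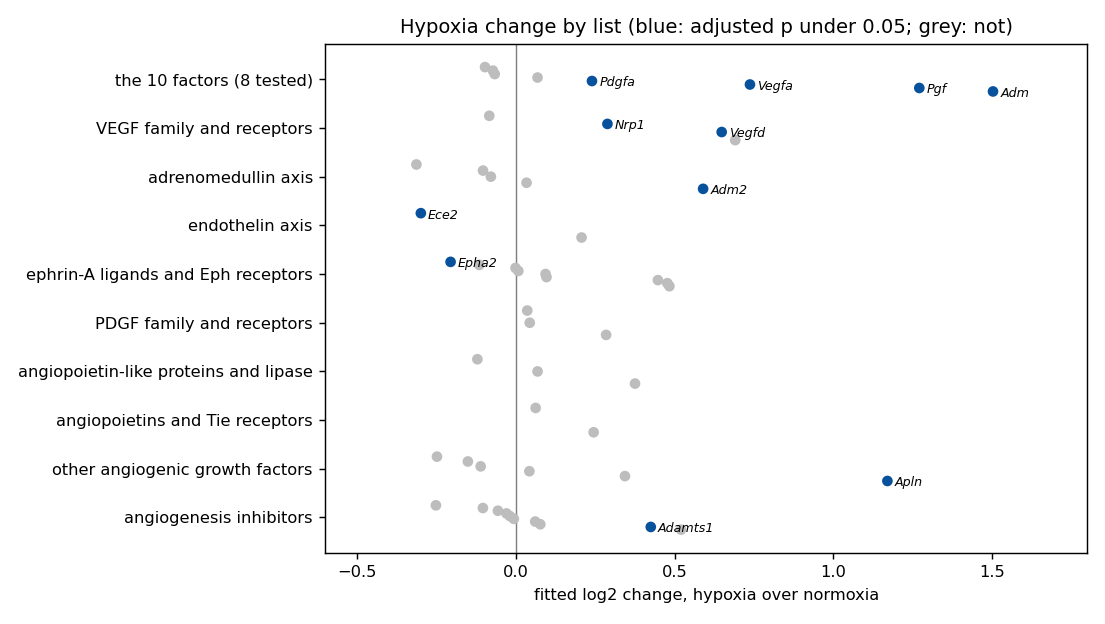
Fitted log2 change with hypoxia for each tested gene, with the factors in the top row and the partner lists below. Blue points have an adjusted p under 0.05 in the additive edgeR model and are named, and grey points do not. Apln at 1.17 is the only partner above a log2 change of 1, and the named partners other than Apln lie between -0.30 and 0.65.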

How the data were processed

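MC38 cells were profiled as 1 poly-A selected, strand-specific, paired-end library for each of 4 conditions. The company aligned reads with HISAT2, and per the labels featureCounts and mm10 were used. Versions, annotation and strand setting are not given in the sources used here. The authors deposited raw counts per gene, without normalization, in 1 table of 27179 NCBI gene IDs, of which 25275 matched a symbol in the RefSeq table of GRCm38.p6. Totals were 34302971 to 34537939 counts.

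The members, gene lists and tests were chosen with earlier results of these data known. All members were named, with partner genes under an adjusted p of 0.05 (at most 4 per list and stimulus). Most receptors of members were also named, though of the EphA receptors only Epha2. The main test was edgeR 4.0.16 (R 4.3.3) with TMM, the default filter at a minimum of 10 counts and an additive model of oxygen and IFN-γ, adjusted by Benjamini-Hochberg over 13580 genes. Standard errors are the absolute log2 change divided by the square root of F. Pair ratios had 0.5 counts added. Alternatives were DESeq2 1.42.0, other size factors, other count filters, a model without the other stimulus, each pair alone and 5 counts added. The intervals with counts divided by 2 were chosen after seeing the data. The scripts were tested on simulated data.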

Additional observations from a re-analysis of the deposited data

Results flagged for a closer look

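The pairs of libraries had log2 ratios of opposite sign under the same stimulus for 5 of the 8 tested factors. With 1 library per condition none of these differences was tested. The share of all genes with opposite signs was not computed, and ratios near 0 can take either sign. The count is therefore not read as a trait of these factors. For Angptl4 the hypoxia log2 ratio was -0.22 without and 0.34 with IFN-γ, and equivalently the IFN-γ ratio was -0.074 in normoxia and 0.49 in hypoxia. For Pgf the IFN-γ ratio was -0.038 in normoxia and 0.73 in hypoxia. The other 3 factors had IFN-γ ratios near 0 on both sides, whose 95% counting intervals included 0. These were -0.0025 in normoxia and 0.075 in hypoxia for Vegfb, 0.0057 and -0.068 for Efna1, and 0.045 and -0.0066 for Pdgfa.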

How the results depend on the processing

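The number of factors raised by hypoxia, 4 in the reported fit, was 2 without a filter on low counts, 2 with at least 10 counts in every library (which removes Adm) and 2 when a log2 change of at least 1 was also required. It was 1 in edgeR without the other stimulus in the model and 1 in DESeq2, which gave Pgf, Adm and Angptl4 no adjusted p (the unadjusted p of Pgf was 0.00318 and of Adm 0.0467). Vegfa was called in each alternative fit, though its log2 change is under 1. Among the partners, edgeR without the other stimulus called 1 raised and 0 lowered with hypoxia and 0 raised with IFN-γ. DESeq2 called 3 raised and 0 lowered with hypoxia and 0 raised with IFN-γ. Requiring a log2 change of at least 1 left 1 raised and 0 lowered with hypoxia. The cause of these losses was not tested. No fitted change that was called reversed its sign under any alternative. The median hypoxia change of the tested factors ran from 0.07 to 0.28 over the alternatives.

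No paired analysis was possible because each condition has 1 library and the labels carry no replicate numbers that pair libraries beyond the 2 stimuli already in the model. Leaving out a library leaves no residual degree of freedom, so each pair was given as a value instead. The depth limits Edn1 and Pdgfb, at or under 3 counts, and Adm, whose 7 to 40 counts leave wide intervals.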
